A study of Mus musculus with 20 samples.

Results

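The livers of 4 male mice dosed with Nafion byproduct 2 at 6 mg/kg per day were compared with the livers of 4 control mice at 0 mg/kg, across all genes. The members were chosen by the dose in the sample labels, and they are 8 of the 20 libraries of the study, which also dosed 4 mice each at 0.03, 0.3 and 3 mg/kg. All animals were Balb-C males of 10 to 12 weeks that received 1 gavage daily over 7 days, and each library came from the liver of 1 animal. No genetic change, second agent or recovery period is given for either group. According to the protocols the vehicle was deionized water, while the control titles carry the word DMSO, so which of these the controls received is not settled here. Nafion byproduct 2 is a polyfluorinated ether sulfonic acid that arises in making a fluoropolymer membrane. Transcripts were measured with TempO-Seq, in which pairs of short detector oligonucleotides are ligated on their target RNA, amplified and counted, so that each value is the count of 1 probe rather than of a whole transcript. Because each mouse gave 1 library, the p-values below measure the spread between animals together with that of the assay.

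The liver answers many foreign compounds through nuclear receptors. CAR and PXR raise cytochrome P450 enzymes, conjugating enzymes and export pumps, PPARalpha raises the enzymes that burn fatty acids, and the factor NRF2 raises enzymes that detoxify electrophiles. Fatty acid and cholesterol synthesis are run by SREBP factors. In the male mouse, pulses of growth hormone act through STAT5 to hold up a set of sex-biased genes, and hepatocytes near the portal vein and near the central vein use different sets of enzymes, a pattern that Wnt signals sustain around the central vein. Hepatocytes also make most plasma proteins and in the adult rarely divide.

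Library totals were 7123004 to 9890662 counts in the control group and 8173468 to 8477663 counts at 6 mg/kg, so that the floor of 3 counts lay between 0.300 and 0.422 CPM (counts for every 1000000 counts, on TMM-scaled library sizes). That floor reflects counting error alone, because reads made by amplification do not each stand for a molecule. The mean correlation with the rest of its group was 0.972 to 0.976 in the controls, 0.966 to 0.970 in 6 mg/kg replicates 1 to 3 and 0.940 in 6 mg/kg replicate 4, which stands apart. Probes for major urinary proteins held 2.96% of the counts in that library, 10.0% to 12.3% in the other 3 dosed libraries and 12.1% to 21.1% in the controls. Controls lay in plate row A and all 6 mg/kg libraries in row B, so dose and plate row cannot be told apart in this comparison alone.

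Of 10101 genes tested, each by its probe with the highest mean count, 2072 were called at an adjusted p under 0.05 in edgeR's quasi-likelihood test (20.5%). Of these, 1099 genes were higher (10.9%) and 973 were lower (9.63%). The rises were larger: 621 genes rose by more than 2-fold, 202 by more than 4-fold and 32 by more than 16-fold. Among the falls, 362 genes fell by more than 2-fold, 85 by more than 4-fold and 0 by more than 16-fold. The median log2 change was 1.10 for the risers, -0.83 for the fallers and -0.02 for all genes tested. The 4 dosed libraries lay above all 4 controls in 925 of the risers and below them in 836 of the fallers. Over all genes tested, the called ones included, these shares were 12.2% and 14.7%. The calls rest on these same libraries, so a high share among called genes follows from the call and is a description only. Over the 14122 probes tested, 2867 were called (20.3%), 1634 higher (11.6%) and 1233 lower (8.73%), and without 6 mg/kg replicate 4 these were 1235 higher and 1047 lower.

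**Figure D1:**
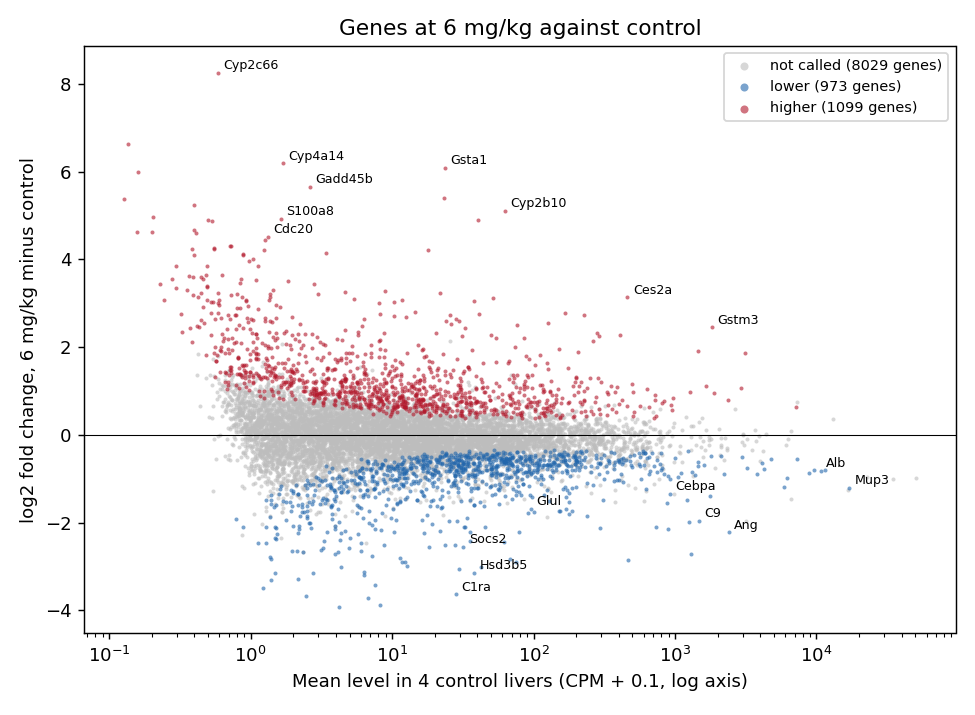
Log2 change at 6 mg/kg against control (vertical axis) against the mean level in the 4 control livers in CPM on a log axis (horizontal axis, with a small constant added), 1 point per gene tested, with genes called higher and lower coloured. The 1099 risers reach larger changes than the 973 fallers and start from lower control levels, though the calls rest on these same control values.

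Genes that fell started from higher control levels than genes that rose, with a median of 31.8 CPM for fallers, 8.34 CPM for risers and 10.4 CPM for all genes tested. The calls rest on these same control values, which by itself lowers the control level of risers and raises that of fallers. For the same reason the direction of the shares that follow is set by the calls, and only their size is described. Together the rising probes took 7.73% to 8.46% of all counts of a library in the controls and 18.4% to 25.03% in the dosed libraries. The falling probes went from 21.4% to 24.2% in the controls to 12.1% to 15.6% at 6 mg/kg. In both directions 6 mg/kg replicate 4 lay at the far end. These are shares of a total, so in a bulk liver sample fewer cells of a type and less RNA per cell cannot be told apart, here and for the cell type markers below.

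The 72 gene lists used below had member counts that differ in direction as well as in number. In the plot of list shares, the lists of mitosis, P450 enzymes, cholesterol synthesis, NRF2 targets and glutathione transferases stand furthest above the background of higher calls. Growth hormone targets, complement and pericentral genes stand furthest above the background of lower calls. Several lists share members, so their counts are not independent. Every count below is to be read against 10.9% higher and 9.63% lower over all genes tested. A count near those shares does not set a list apart.

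**Figure D2:**
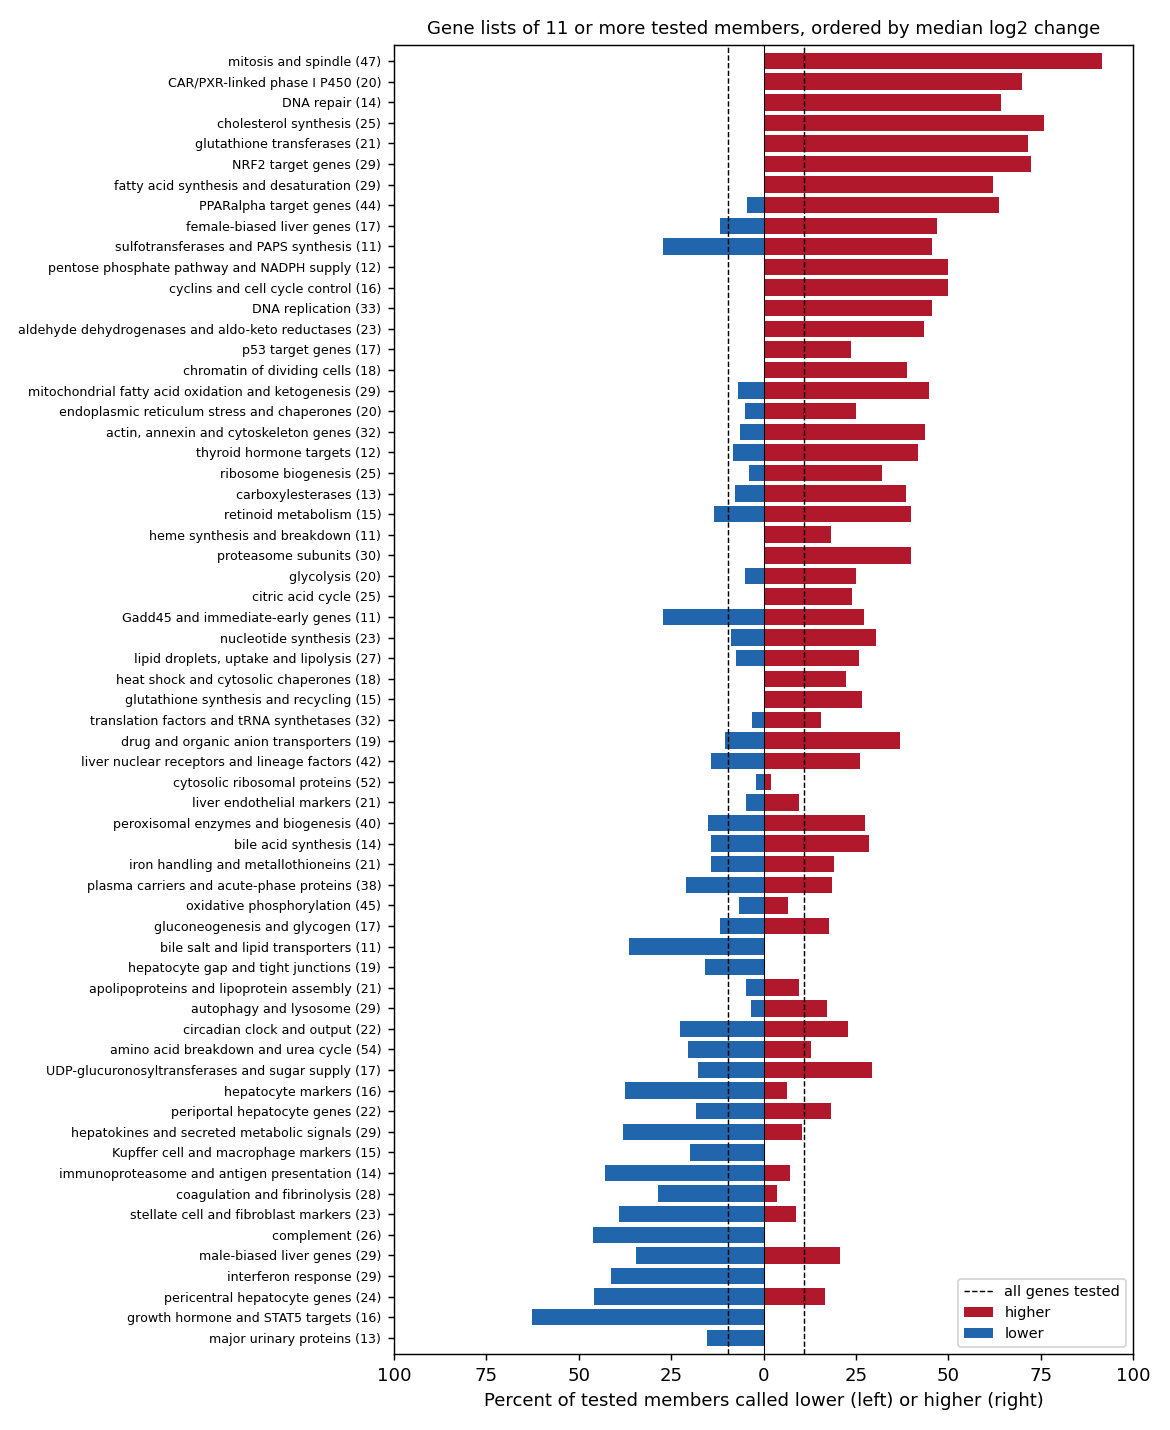
Share of the tested members of each gene list called higher and lower at 6 mg/kg, in percent, for lists with at least 11 tested members; dashed lines mark the shares over all genes tested, 10.9% higher and 9.63% lower. Mitosis and spindle genes have 43 of 47 members higher, and growth hormone and STAT5 targets have 10 of 16 members lower.

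P450 enzymes linked to CAR and PXR rose in 14 of 20 tested members and fell in 0, with a median log2 change of 2.12 against -0.02 for all genes. Cyp2b10, the classical CAR-responsive P450, stood at 90.6, 74.6, 28.9 and 54.9 CPM in control replicates 1 to 4 and at 1304, 1642, 1661 and 3990.3 CPM in 6 mg/kg replicates 1 to 4. All dosed livers lay above all controls, and replicate 4 was the highest. Its second probe rose as well, by a log2 of 4.07. Cyp2c66, a P450 on chromosome 19 (39113898 to 39187072), had only 6, 6, 1 and 2 counts in the controls and 1225, 1373, 1453 and 1070 counts in the dosed livers, so its fitted fold change is imprecise. For Por, the reductase that passes electrons to all microsomal P450 enzymes, the controls held 15.9 to 28.7 CPM and the dosed livers 148, 296, 301 and 78.6 CPM, a log2 change of 3.23 (SE 0.36, edgeR adjusted p = 4.0e-06). Here replicate 4 was the lowest dosed library. A second probe of Por rose by 3.70 and the remaining one did not pass at 1.09. Cyp2a5, which hydroxylates coumarin, rose by 2.72 (SE 0.26) and both of its other probes rose too. Not every P450 followed: Cyp2c29 was at 0.74 (SE 0.40) and did not pass, and the main probe of Cyp3a11, a PXR-linked P450, did not pass at -0.50 (SE 0.54), although a second probe of it rose by 1.87. Genes of the Cyp2c, Cyp3a, Gsta, Gstm, Ces, Ugt, Orm and Mup families are near-identical in places, and a probe may read a relative of the gene it is named for, which was not tested.

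A pair of P450 genes of the central vein region moved in opposite directions. Cyp2e1, which oxidises ethanol and acetone, was at 7938 to 11113 CPM in the controls and 4486 to 6041 CPM at 6 mg/kg, a log2 change of -0.81 (SE 0.16, edgeR adjusted p = 0.0016). Cyp1a2, an enzyme of caffeine and aromatic amine metabolism, rose from 42.8 ± 9.29 CPM to 89.7 ± 26.6 CPM (SD, n = 4 each), a log2 change of 1.07 (SE 0.26, edgeR adjusted p = 0.0056). The groups overlapped for neither gene. Ahr, the receptor best known for raising Cyp1a2, rose by 2.23 (SE 0.39). Of 4 tested AhR-linked genes 2 rose and 1 fell (median 0.15). Their summed level was 268 to 350 CPM in the controls and 220 to 279 CPM at 6 mg/kg.

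Conjugating enzymes differed by family. Of 21 tested glutathione transferases, which attach glutathione to electrophiles, 15 rose and 0 fell (median 0.99). Gstm3 on chromosome 3 (107963696 to 107969283) was at 1581 to 2036 CPM in the controls and 8023 to 11423 CPM at 6 mg/kg, with no overlap. Gstt3, a theta-class transferase, was at 22.7 to 27.7 CPM against 137 to 193 CPM, and its 2 other probes rose by 2.68 and 3.72. Among 13 carboxylesterases, which split esters and amides, 5 rose and 1 fell. Ces2a on chromosome 8 (104734003 to 104741634) stood at 419 to 487 CPM in the controls and at 2396, 3740, 3988 and 6105 CPM in the dosed livers, and all 4 of its probes rose. Ces3b, on the same chromosome (105083753 to 105093929), was the 1 that fell, from 759, 844, 1009 and 954 CPM to 317, 209.5, 194 and 91.9 CPM, a log2 change of -2.13 (SE 0.30, edgeR adjusted p = 4.4e-05). In that family, then, the groups were apart in both directions.

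Glucuronidation genes did not move as 1 block, with 5 of 17 higher and 3 lower and a median of -0.17. Ugt1a1, the transferase for bilirubin, rose from 1648 ± 26.8 CPM to 3558 ± 651 CPM (SD, n = 4 each; log2 1.11, SE 0.15), and Ugt2b38 fell by 2.99 (SE 0.71). Sulfation genes were also split, with 5 of 11 higher and 3 lower. Papss2, which makes the sulfate donor, went from 24.96 to 33.9 CPM in the controls to 71.1 to 118 CPM, a log2 change of 1.74 (SE 0.20, edgeR adjusted p = 3.9e-06). Sult2a8, a sulfotransferase of bile acids, fell by 1.47 on the log2 scale (SE 0.21), and both of its other probes fell. Of 23 aldehyde dehydrogenases and aldo-keto reductases 10 rose and 0 fell, among them Aldh1a1, which makes retinoic acid, at 10.9 to 16.1 CPM against 68.9 to 87.2 CPM (log2 2.69, SE 0.27).

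Among 19 transport genes for drugs and organic anions, 7 rose and 2 fell. Those that rose include efflux pumps of the basolateral membrane: Abcc4 went from 0.862 ± 0.299 CPM to 5.13 ± 2.27 CPM (SD, n = 4 each), and its second probe rose by 2.70. Abcc3 rose by 2.60 (SE 0.47). The pair that fell are uptake carriers. Slco1b2, which takes up bile acids and drugs, was at 907 to 1162 CPM in the controls and at 655, 632, 645 and 234 CPM at 6 mg/kg, and Slc22a7, a carrier of organic anions, fell by 2.41 on the log2 scale (SE 0.45). Both second probes fell, by 0.66 and 1.11 on the log2 scale.

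NRF2 targets rose in 21 of 29 tested members and fell in 0 (median 0.98). NRF2 binds a short element in promoters, and the promoter of Ugdh, which makes the sugar donor for glucuronidation, is shown because it holds a match and Ugdh has the smallest p of the listed genes that do. The window runs on the minus strand of GRCm38.p6, chr5:65435950-65436092, with the element TGACNNNGC in capitals, 132 bases before the RefSeq start.

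Ugdh: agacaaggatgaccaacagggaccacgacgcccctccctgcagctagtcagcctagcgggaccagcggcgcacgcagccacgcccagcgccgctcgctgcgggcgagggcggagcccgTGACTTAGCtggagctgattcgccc

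Ugdh was at 267, 276, 265 and 237 CPM in the controls and at 863, 1284, 1232 and 1238 CPM at 6 mg/kg, a log2 change of 2.14 (SE 0.18, edgeR adjusted p = 6.4e-08). The groups were far apart, and replicate 1 was the lowest dosed library. On either strand of the 250 bases before the start, the element was found in 8 of 34 RefSeq promoters of list members (23.5%), in 4 of 26 promoters of the members that rose (15.4%), in 10.2% of all 32851 promoters and in 11.4% of promoters of the genes tested. A match in letters is a description only. Nqo1, a quinone reductase, was at 3.64 to 4.78 CPM against 12.97 to 22.7 CPM, and Srxn1, which repairs oxidised peroxiredoxins, was at 4.74 to 5.58 CPM against 14.6 to 31.6 CPM. The transcript of NRF2 itself, Nfe2l2, rose by 1.07 (SE 0.22), with its second probe at 1.69. Among listed targets that did not pass were Gclc, the catalytic subunit of glutathione synthesis, at -0.19 (SE 0.33), and Txnrd1, thioredoxin reductase, at -0.06 (SE 0.16). These last genes were singled out after their values were seen.

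In the lipid lists of synthesis and of oxidation more members rose than fell, but not every summed level was higher. Of 25 cholesterol synthesis genes 19 rose and 0 fell (median 1.10), and fatty acid synthesis and desaturation genes rose in 18 of 29 and fell in 0 (median 0.91). Sqle, which oxidises squalene, was at 20.8, 14.2, 27.3 and 18.7 CPM in the controls and at 81.9, 106, 121 and 96.4 CPM at 6 mg/kg, a log2 change of 2.32 (SE 0.31, edgeR adjusted p = 2.6e-05), with its second probe at 3.03. The groups were apart. Fasn, the fatty acid synthase, went from 3.37 to 8.05 CPM in the controls to 26.9 to 56.9 CPM. All 4 probes of the elongase Elovl6 rose, by 1.95 to 2.96.

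SREBP factors bind a sterol element, and Hmgcs1, which makes hydroxymethylglutaryl-CoA, held the 1 match to TCACNCCAC among 20 promoters of the cholesterol list (5%, against 1.05% of all promoters and 1.19% of promoters of the genes tested). That is 1 of 17 promoters of the members that rose (5.88%). It is shown for that reason, on the plus strand of GRCm38.p6, chr13:119690101-119690350, with the element in capitals, 137 bases before the start.

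Hmgcs1: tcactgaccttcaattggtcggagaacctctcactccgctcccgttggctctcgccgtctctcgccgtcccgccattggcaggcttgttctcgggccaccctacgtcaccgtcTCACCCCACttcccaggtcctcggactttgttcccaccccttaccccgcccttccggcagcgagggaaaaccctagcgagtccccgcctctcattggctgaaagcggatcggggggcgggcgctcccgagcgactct

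Hmgcs1 was at 179.7, 162, 215 and 243 CPM in the controls and at 471, 643, 681 and 207 CPM at 6 mg/kg, a log2 change of 1.32 (SE 0.27, edgeR adjusted p = 0.0015). Replicates 1 to 3 lay above all controls, and replicate 4 lay within the control range.

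Targets of PPARalpha rose in 28 of 44 members and fell in 2 (median 0.82). Cyp4a14, a hydroxylase of the fatty acid tail, had 24, 19, 5 and 1 counts in the controls and 638, 893, 944 and 1591 counts at 6 mg/kg. Acot2, a mitochondrial thioesterase, was at 1.30 to 1.97 CPM against 10.6 to 26.4 CPM, and Ehhadh, a bifunctional enzyme of peroxisomal oxidation, at 229.9 to 339.7 CPM against 1066 to 1565 CPM. The groups overlapped for none of these genes. Crat, carnitine acetyltransferase, which exchanges acetyl groups between carnitine and coenzyme A, rose by 2.39 (SE 0.33) and Cd36, a fatty acid carrier of the cell surface, by 1.48 (SE 0.28). The receptor gene Ppara itself fell by 0.81 on the log2 scale (SE 0.17), and its 2 other probes did not pass at -0.41 and -0.62. The other listed gene that fell was Fgf21, a hormone that fasting raises through PPARalpha. It had 44, 10, 7 and 14 counts in the controls and 3, 0, 1 and 2 counts at 6 mg/kg, all at or under the floor of 3 counts. Of 29 genes of mitochondrial oxidation and ketogenesis 13 rose and 2 fell, and of 40 peroxisomal enzymes and biogenesis genes 11 rose and 6 fell, among the latter Hao1, an oxidase of glycolate, at 835 to 977 CPM against 415 to 537 CPM (log2 -1.01, SE 0.25). The summed levels of cholesterol synthesis and of PPARalpha targets lay above all controls in every dosed liver. Those of fatty acid synthesis overlapped, at 3983 to 5544 CPM in the controls and 5384 to 6760 CPM at 6 mg/kg. Mitochondrial oxidation also overlapped, at 7806 to 10130 CPM against 8877 to 10300 CPM. The peroxisomal sum was lower in every dosed liver, at 21195.5 to 23078 CPM against 17053 to 19705 CPM.

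Genes of cell division had the largest share of risers and the highest median of the lists with at least 11 tested members. Of 47 tested mitosis and spindle genes, out of 55 listed, 43 rose and 0 fell, with a median log2 change of 3.05. Their summed level went from 319 to 394 CPM in the controls to 1024, 1277, 1251 and 1437 CPM. The filter on low counts asked for counts in only as many libraries as 1 group holds. A gene could therefore enter through the dosed livers alone, while members low in every group dropped out. The share and the median partly rest on that filter, here and in the other lists. The 4 tested members that did not pass were Cks2 at -0.33, Cks1b at 0.57, Mad2l1 at 0.83 and Racgap1 at 1.34. Many of these genes sat close to the floor in control livers. With at most 10 counts in each control library and at least 5 CPM in each dosed library, a limit set after the values were seen, 16 genes went from near the floor to a measurable level, and no gene did the reverse. Of the 16, most belong to cell division: Cenpe, Cenpf, Hmmr, Ccna2, Prc1, Plk1, Ccnb2, Tpx2, Kif2c, Kif15 and the histone gene Hist1h1a. The others were Cyp2c66, Orm3, Ifi27l2b, Mab21l3 and Nrg1.

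Promoters of late cell cycle genes often carry CCAAT boxes and a TTTGAA element, the cell cycle genes homology region (CHR), which bring in the factors NF-Y and the DREAM or MuvB complexes. Promoters of replication genes often carry E2F elements. Cenpf and Cdc20 were taken as listed mitosis genes with small p that hold the first and the second element, and Mcm6 as the listed replication gene that rose and holds the E2F element TTGGCGC. The windows are on the minus strand of GRCm38.p6: chr1:189688087-189688336 for Cenpf, with 2 CCAAT boxes in capitals at 132 and 71 bases before the start, chr4:118437353-118437593 for Cdc20, with TTTGAA in capitals at 18 bases, and chr1:128359706-128359955 for Mcm6, with TTGGCGC in capitals at 109 and 46 bases.

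Cenpf: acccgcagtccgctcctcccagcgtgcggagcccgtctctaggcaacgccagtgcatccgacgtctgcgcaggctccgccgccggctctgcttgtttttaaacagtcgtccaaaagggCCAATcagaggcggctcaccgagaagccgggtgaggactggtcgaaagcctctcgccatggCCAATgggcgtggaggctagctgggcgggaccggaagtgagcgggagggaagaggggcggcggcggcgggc

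Cdc20: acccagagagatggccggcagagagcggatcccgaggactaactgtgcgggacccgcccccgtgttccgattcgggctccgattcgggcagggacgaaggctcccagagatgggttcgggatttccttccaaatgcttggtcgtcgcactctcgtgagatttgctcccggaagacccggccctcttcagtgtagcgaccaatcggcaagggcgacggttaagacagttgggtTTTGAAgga

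Mcm6: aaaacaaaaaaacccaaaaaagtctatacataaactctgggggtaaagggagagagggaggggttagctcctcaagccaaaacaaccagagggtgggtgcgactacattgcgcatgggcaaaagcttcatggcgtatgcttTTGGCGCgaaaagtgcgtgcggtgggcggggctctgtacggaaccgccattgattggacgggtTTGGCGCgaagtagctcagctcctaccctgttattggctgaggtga

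On either strand, CCAAT was found in 28 of 40 promoters of the mitosis list (70.0%), 25 of 36 promoters of its members that rose (69.4%), 33.8% of all promoters and 35.1% of promoters of the genes tested. For TTTGAA these were 13 of 40 (32.5%), 12 of 36 (33.3%), 15.99% and 11.1%. TTGGCGC was found in 3 of 31 promoters of the replication list (9.68%), only 1 of 18 promoters of its members that rose (5.56%), 1.97% of all promoters and 3.49% of promoters of the genes tested. A second E2F spelling, TTCCCGC, was found in 5 of 31 (16.1%), 3 of 18 (16.7%), 3.82% and 6.68%. RefSeq promoters matched 38 genes of the mitosis list, 26 of the replication list, 25 of the NRF2 list and 17 of the cholesterol list.

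Cenpf, a kinetochore protein, had 6, 6, 7 and 6 counts in the controls and 85, 145, 118 and 135 counts at 6 mg/kg. Cdc20, which activates the anaphase-promoting complex, was at 0.779 to 1.62 CPM against 16.7, 33.6, 32.8 and 31.1 CPM, a log2 change of 4.51 (SE 0.37, edgeR adjusted p = 5.8e-08), with its second probe at 4.20. Both genes separated the groups fully. Top2a, the topoisomerase of dividing cells, rose by 3.21 (SE 0.38), but the level in replicate 4 was 4.60 CPM where the other dosed libraries held 13.6 to 15.3 CPM. The proliferation marker Mki67 went from 0.495 ± 0.258 CPM to 4.32 ± 0.548 CPM (SD, n = 4 each).

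DNA replication genes rose in fewer members, 15 of 33, and fell in 0 (median 0.52). Mcm6, a subunit of the replicative helicase, was at 3.12 to 5.58 CPM in the controls and at 34.0, 49.1, 43.8 and 46.7 CPM at 6 mg/kg, a log2 change of 3.25 (SE 0.27, edgeR adjusted p = 5.8e-08). Pcna, the sliding clamp of the same machinery, was at 26.6 to 29.8 CPM against 28.5 to 37.1 CPM and did not pass (log2 0.24, SE 0.19). The replication list therefore held members with a large rise beside members that did not pass. DNA repair genes rose in 9 of 14 and fell in 0 (median 1.37). Cyclins and cell cycle control genes rose in 8 of 16 and fell in 0, and these include the inhibitor Cdkn1a, a p53 target, at 2.78 (SE 0.58). The p53 targets as a list rose in 4 of 17 and fell in 0 (median 0.47). Gadd45b, a stress gene on chromosome 10 (80930073 to 80932204), went from 3.00, 4.08, 1.40 and 1.69 CPM to 83.3, 122, 117 and 184 CPM, and its second probe rose by 5.73. Junb, an immediate-early factor, went the other way, from 5.49 to 11.8 CPM to 1.89 to 3.60 CPM (log2 -1.61, SE 0.29).

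**Figure D3:**
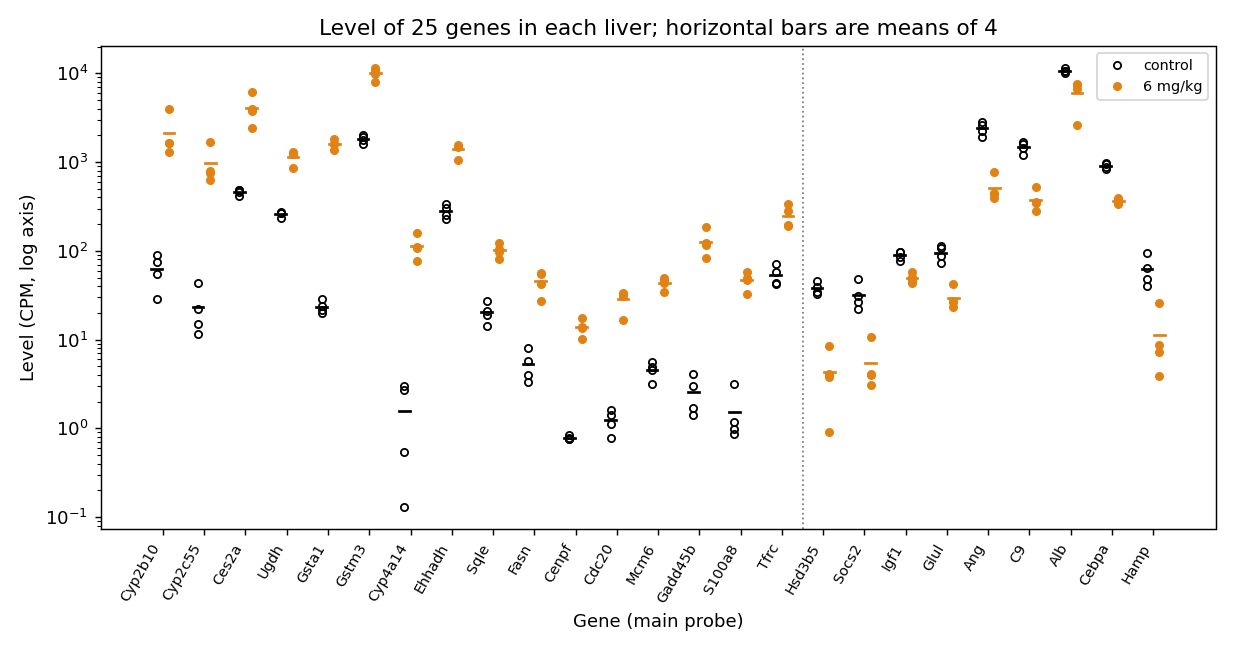
Level in CPM on a log axis (vertical axis) for 25 genes (horizontal axis), 1 point per library, with open points for the 4 control livers, filled points for the 4 dosed livers and a bar at each mean; a dotted line separates risers from fallers. For genes such as Cyp2b10, Gadd45b and Mcm6 all 4 dosed points lie above all 4 control points, and for genes such as Hsd3b5, Glul and Cebpa all 4 lie below.

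Protein turnover and structural genes moved in part. Of 30 constitutive proteasome subunits, 12 rose and 0 fell (median 0.35), with Psma7, a subunit of the core ring, at 4.22 to 7.12 CPM against 12.9 to 19.8 CPM. The interferon-inducible subunit Psmb9 fell, from 15.7 ± 4.50 CPM to 7.59 ± 2.08 CPM (SD, n = 4 each; log2 -1.04, SE 0.24). Hsp90aa1, the inducible cytosolic HSP90, rose by 1.79 (SE 0.26). A second probe of it rose by 1.88 and the remaining one did not pass at 0.18. The list of heat shock genes had 4 of 18 members higher and 0 lower. Actin, annexin and cytoskeleton genes rose in 14 of 32 and fell in 2, and the hepatocyte keratins Krt8 and Krt18 rose by 1.21 (SE 0.15) and 0.59 (SE 0.15).

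Basic machinery stayed near the median of all genes. Of 52 tested cytosolic ribosomal protein genes, 1 rose, Rps14, and 1 fell, Rps10, with a list median of 0.05. Rps10 was at -1.41 and did not pass when any 1 of the 8 libraries was left out (edgeR adjusted p from 0.0522 to 0.103). Rps14 went from 0.994 ± 0.387 CPM to 1.83 to 10.305 CPM. Without the 2 libraries that stand apart, which are 6 mg/kg replicate 4 and a 3 mg/kg library, 6 ribosomal genes rose and 4 fell. Of 45 oxidative phosphorylation genes 3 rose and 3 fell, with a median of 0.00, and the lower ones numbered 0 without 6 mg/kg replicate 4. In the main fit the shares of both lists are below the background of 10.9% and 9.63%. That background does not apply to the fit without the 2 libraries, which called 2878 genes against 2072 in the main fit.

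Growth hormone and STAT5 targets fell in 10 of 16 tested members and rose in 0, with a median of -0.97, and the values of all 16 were below 0, the highest at -0.45. Their summed level went from 25078 to 28397 CPM in the controls to 16927, 13671, 12937 and 7789 CPM in 6 mg/kg replicates 1 to 4. Hsd3b5, a male-specific steroid dehydrogenase on chromosome 3 (98618634 to 98630252), was at 33.9, 32.5, 45.3 and 39.6 CPM in the controls and at 8.40, 4.14, 3.79 and 0.900 CPM at 6 mg/kg. Socs2, a feedback inhibitor of the growth hormone receptor, was at 21.9 to 47.8 CPM against 10.6, 4.02, 4.14 and 3.10 CPM, and all 3 of its probes fell. For both genes the groups were apart, with replicate 1 the highest and replicate 4 the lowest of the dosed livers. Igf1, the growth factor that the liver secretes on growth hormone, was at 88.7 ± 9.98 CPM against 49.5 ± 6.21 CPM (SD, n = 4 each; log2 -0.84, SE 0.13, edgeR adjusted p = 0.00011), with its second probe at -2.15. Mup3, a major urinary protein that male mice excrete as a pheromone carrier, was at 14688 to 18736 CPM against 10145, 7937, 7331 and 4281 CPM. Of 13 tested Mup genes, 2 fell and 0 rose, Mup3 and Mup21, and Mup21 at -2.12 did not pass without 6 mg/kg replicate 4 (-1.86, edgeR adjusted p = 0.0726). The receptor gene Ghr was at -1.56, and did not pass without control replicate 4 (-1.28, edgeR adjusted p = 0.0796), without 6 mg/kg replicate 3 (edgeR adjusted p = 0.0527) or without 6 mg/kg replicate 4 (edgeR adjusted p = 0.0637). A second probe of Ghr was lower at -0.71 (SE 0.16, edgeR adjusted p = 0.0042).

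Pericentral hepatocyte genes fell in 11 of 24 and rose in 4 (median -0.81). Glul, the glutamine synthetase of the innermost cell layer, was at 88.6, 72.3, 108 and 112 CPM in the controls and at 41.8, 27.0, 23.1 and 26.8 CPM at 6 mg/kg, a log2 change of -1.68 (SE 0.25, edgeR adjusted p = 6.9e-05). Lgr5, a receptor that amplifies Wnt signals, was at 2.62 to 5.39 CPM against 0.122 to 1.32 CPM. Slc1a2, the glutamate carrier of the same cells, was at 19.2 to 29.4 CPM against 5.68 to 7.56 CPM, and all 4 of its probes fell. None of these genes had overlapping groups. Ang and Rnase4, secreted ribonucleases, fell by 2.22 (SE 0.21) and 1.99 (SE 0.25) on the log2 scale. Their loci overlap on chromosome 14 (51091150 to 51102009 and 51091077 to 51106151), so the pair may not be independent. The 4 pericentral genes that rose were Cyp1a2, Cyp2c37, Aldh1a1 and Cyp7a1, and 2 of them, Cyp2c37 and Aldh1a1, also stand in the lists of P450 enzymes and aldehyde dehydrogenases. Cyp7a1, the first enzyme of bile acid synthesis, was at 3.01 and missed the threshold without control replicate 3 (2.81, edgeR adjusted p = 0.0522). Periportal genes fell in 4 of 22 and rose in 4 (median -0.24, background 9.63% lower and 10.9% higher). Gls2, the liver glutaminase, was at 319 to 484 CPM against 165 to 219 CPM (log2 -1.02, SE 0.15), with its other probes at -0.58 and 1.002, neither of which passed. Hal, which breaks down histidine, fell by 0.72 on the log2 scale (SE 0.12), and Cps1, the first enzyme of the urea cycle, was at -0.13 (SE 0.48) and did not pass.

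The lists of secreted proteins differed. Apolipoproteins and lipoprotein assembly genes rose in 2 of 21 and fell in 1 (median -0.09). Complement genes fell in 12 of 26 and rose in 0 (median -0.49), and coagulation genes fell in 8 of 28 and rose in 1. C9, a terminal complement component on chromosome 15 (6445327 to 6498751), was at 1199, 1682, 1451 and 1580.4 CPM in the controls and at 526, 358, 349 and 282 CPM at 6 mg/kg, and all 4 of its probes fell. C1ra, a protease of the classical pathway, was at 21.8 to 37.1 CPM against 2.10 to 2.64 CPM. Ahsg, the carrier fetuin-A, was at 1717 to 1849 CPM against 795, 702, 713 and 468 CPM (log2 -1.39, SE 0.16, edgeR adjusted p = 3.3e-06). The groups did not overlap for any of the 3 genes. Alb, albumin, was at 10042 to 11536 CPM against 6683, 7525, 7409 and 2622 CPM, lowest in replicate 4. With total counts as the only scaling, 7 complement genes fell instead of 12.

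Acute-phase proteins did not share a direction, with 7 of 38 plasma carriers and acute-phase genes higher and 8 lower. Orm2, an acid glycoprotein, was at 6.49 to 17.7 CPM against 93.7, 86.7, 85.1 and 67.1 CPM, and its relative Orm3 had 3, 1, 3 and 7 counts in the controls and 109 to 119 counts at 6 mg/kg. Apcs, serum amyloid P, rose by 0.996 (SE 0.20), and fibrinogen genes of the same response fell, Fga by 0.98 (SE 0.16) and Fgb by 1.18 (SE 0.23) on the log2 scale. A second probe of Fga was lower at -0.54 and the remaining one did not pass at 0.56. The second probe of Fgb did not pass at -2.63. Without the 2 libraries that stand apart, 13 genes of this list fell. Hepatokines and other secreted signals fell in 11 of 29 and rose in 3. Tsku, one of those that rose, is a secreted regulator of cholesterol handling and was at 4.12, 5.49, 18.3 and 7.27 CPM against 55.4, 92.8, 97.2 and 100.5 CPM, with its second probe at 3.73.

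Single iron genes moved in both directions. Hamp, hepcidin, the hormone that limits iron export into blood, was at 95.0, 64.6, 48.3 and 39.9 CPM in the controls and at 25.6, 8.65, 7.33 and 3.90 CPM at 6 mg/kg, a log2 change of -2.45 (SE 0.43, edgeR adjusted p = 0.00066). Tfrc, the transferrin receptor that takes iron in, was at 42.7 to 70.4 CPM against 197, 278, 334 and 192 CPM (log2 2.22, SE 0.26). The groups were apart for both. Ftl1, a ferritin chain that stores iron, rose by 0.98 (SE 0.13), Hfe, a regulator of hepcidin, by 1.11 (SE 0.15), and Mt1, a metallothionein, fell by 1.85 on the log2 scale (SE 0.46). In all, 4 of 21 iron and metallothionein genes rose and 3 fell (background 10.9% higher, 9.63% lower). Tfrc also marks erythroid cells, and of 4 tested erythroid markers 2 rose and 0 fell, with a summed level of 66.0 to 124 CPM in the controls and 223 to 363 CPM at 6 mg/kg, most of it Tfrc. Alas2, the heme synthesis enzyme of red cell precursors, was at 3.25 to 6.04 CPM against 8.28 to 13.9 CPM (log2 1.21, SE 0.42, edgeR adjusted p = 0.0439). It missed the threshold when any library but control replicate 3 was left out (0.98 to 1.31, edgeR adjusted p from 0.0543 to 0.155). The globins Hba-a2 (0.16, SE 0.31) and Hbb-bt (-0.97, SE 0.52) did not pass. Hbb-bt was lower without 6 mg/kg replicate 1 (-1.65, edgeR adjusted p = 0.0319). The part of erythroid cells in the Tfrc result and in the cell cycle results was not tested.

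Among 42 liver nuclear receptors and lineage factors, 11 rose and 6 fell. Without 6 mg/kg replicate 4, 7 rose. Cebpa, a factor of the mature hepatocyte on chromosome 7 (35119293 to 35121928), was at 839, 879, 959.97 and 980.1 CPM in the controls and at 389.6, 337, 346 and 373 CPM at 6 mg/kg, a log2 change of -1.34 (SE 0.16, edgeR adjusted p = 6.8e-06), with its second probe at -1.41. Foxa3 fell by 1.32 on the log2 scale (SE 0.24). Hnf4a, another factor of hepatocyte identity, was at 112 to 220 CPM against 77.0 to 187 CPM, with overlapping groups, and did not pass (log2 -0.15, SE 0.26). Nr1i3, which encodes CAR, missed the threshold at -0.58 (SE 0.21, edgeR adjusted p = 0.061). Clock genes rose in 5 of 22 and fell in 5 (background 10.9% higher, 9.63% lower). Of 19 gap and tight junction genes 0 rose and 3 fell (background 9.63%). Gjb1, the main gap junction protein of hepatocytes, was at 34.3 to 54.9 CPM against 2.501 to 6.94 CPM, Ocln, a tight junction protein, at 21.95 to 25.3 CPM against 2.48 to 4.87 CPM, and Ctnnb1, beta-catenin, at a log2 of -0.45, which missed the threshold without control replicate 4 (-0.41, edgeR adjusted p = 0.0615). Bile acid synthesis genes rose in 4 of 14 and fell in 2, and their summed level was 11918 to 13982 CPM in the controls and 6545 to 9027 CPM at 6 mg/kg. The pair that fell were Cyp7b1 (-1.89, SE 0.47) and Hsd3b7 (-0.88, SE 0.14), enzymes that modify the sterol ring. Cyp2c70, the most abundant of the list, was at 5843 to 7885 CPM against 2140.2 to 2872 CPM, with no overlap, but did not pass (log2 -1.46, SE 0.63). It passed without the 2 libraries that stand apart (-1.39, edgeR adjusted p = 1.6e-07). Cyp8b1, which directs synthesis to cholic acid, was at 92.6 to 129 CPM against 189 to 299.9 CPM, with its second probe at 1.66.

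Interferon response genes fell in 12 of 29 and rose in 0 (median -0.56), and their summed level went from 918 to 1169 CPM in the controls to 824, 694, 661 and 577 CPM. Ifi27l2b, an interferon-named gene outside this list, rose by 3.96 (edgeR adjusted p = 1.3e-07), from near the floor. Igtp, an interferon-induced GTPase, was at 105 to 143 CPM against 72.4, 49.3, 41.9 and 44.7 CPM, and the interferon regulatory factor Irf1 at 53.7 to 73.3 CPM against 30.1 to 37.8 CPM. The groups overlapped for neither. Immunoproteasome and antigen presentation genes fell in 6 of 14 and rose in 1, with Cd74, the invariant chain, at 31.1 to 53.04 CPM against 14.9 to 21.97 CPM. Immune cell markers stood beside these falls. Of 15 Kupffer cell and macrophage markers 3 fell, Folr2, C1qb and Lyz2, and 0 rose (background 9.63% lower). Their summed level was 308 to 414 CPM in the controls and 241 to 440.5 CPM at 6 mg/kg, which overlaps, and Adgre1 and Clec4f, defining markers of these cells, were at -0.71 (SE 0.33) and -0.54 (SE 0.49) and did not pass. Folr2 at -1.27 did not pass without control replicate 1 (-1.15, edgeR adjusted p = 0.0515). Of 6 lymphocyte markers 2 fell and 0 rose, among them Nkg7, a granule protein of killer cells, at -1.32. Nkg7 did not pass without control replicate 1 or 2 or 6 mg/kg replicate 1, 2 or 3 (-0.95 to -1.39). The summed level of the lymphocyte list was 11.6 to 24.5 CPM against 8.16 to 15.97 CPM. The part of these cells in the interferon result was not tested.

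Neutrophil markers were tested for only 3 genes. S100a8, a calcium-binding protein of neutrophils that other cells can also make, on chromosome 3 (90668978 to 90670035), had 25, 7, 8 and 9 counts in the controls and 396, 473, 417 and 329 counts at 6 mg/kg, a log2 change of 4.92 (SE 0.45, edgeR adjusted p = 2.9e-07). The other tested markers, Ly6g at -1.06 (SE 0.46) and Retnlg at -0.08 (SE 0.58), did not pass. Stellate cell and fibroblast markers fell in 9 of 23 and rose in 2 (median -0.48), and their summed level was 439 to 489 CPM in the controls and 351, 281, 266 and 331 CPM at 6 mg/kg. Dcn, decorin, was at 58.2 to 94.4 CPM against 26.6 to 51.2 CPM, and Sparc, a matrix protein, rose by 1.26 (SE 0.27). Col1a1, the other that rose, was at 2.07, with 34.2 CPM in replicate 4 and 4.32 to 7.80 CPM in the remaining dosed libraries. Without 6 mg/kg replicate 4 its log2 change was 0.95, short of the threshold (edgeR adjusted p = 0.0552). Endothelial markers rose in 2 of 21 and fell in 1 (background 10.9% higher, 9.63% lower), with a median of 0.04 and a summed level of 477 to 553 CPM against 488 to 589 CPM. Hepatocyte markers, a check of the labelled tissue, were high in every library, with a summed level of 37335 to 43799 CPM in the controls and 23258 to 28136 CPM at 6 mg/kg, and 6 of 16 fell.

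**Figure D4:**
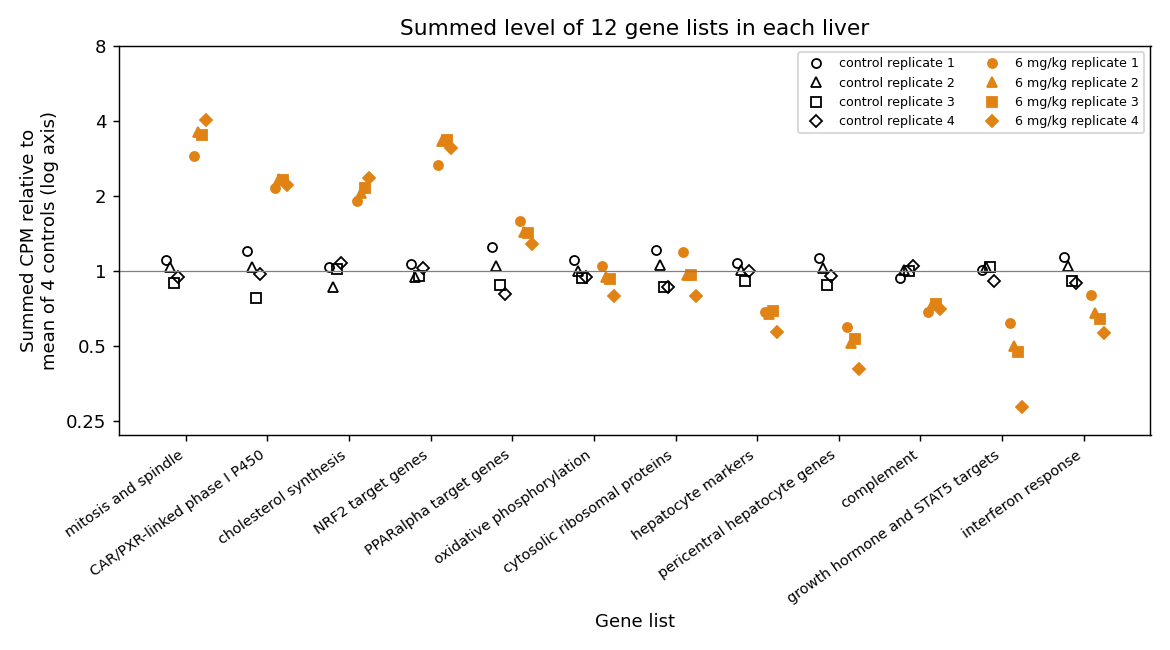
Summed CPM of the tested members of 12 gene lists (horizontal axis) in each library, open points for controls and filled points for 6 mg/kg, relative to the mean of the 4 controls (log axis, 1 is the control mean). Mitosis, P450 and NRF2 target sums lie above the controls in all 4 dosed livers, the growth hormone target sum lies below them in all 4, and the ribosomal protein and oxidative phosphorylation sums overlap.

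Among the called genes, the dosed libraries did not take the highest and lowest places evenly. Among the 1099 risers 6 mg/kg replicate 1 was the lowest dosed library in 532 (48.4%) and replicate 4 the highest in 590 (53.7%). Among the 973 fallers replicate 1 was the highest in 450 (46.2%) and replicate 4 the lowest in 565 (58.1%). The reverse was also found: replicate 4 was the lowest in 239 risers (21.7%) and the highest in 139 fallers (14.3%). For replicate 1, the highest in 114 risers (10.4%) and the lowest in 79 fallers (8.12%), it was rarer. These genes were called with the same libraries, and genes are not replicates of an animal. Whether the animals differed in response was not tested. Over all 10101 genes replicate 4 was the highest in 37.5% and the lowest in 38.9%, so replicate 4 sits at the ends more often in general. Replicate 1 was the lowest in 24.8% and the highest in 25.8%. Every animal was given the same labelled dose, and intake or tissue level was not measured in these files.

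The step from 3 to 6 mg/kg was also tested, and it shares the dosed libraries with the comparison above. It called 703 genes (6.96%). Of all genes tested, 381 were higher at 6 than at 3 mg/kg (3.77%) and 322 were lower (3.19%). Because of the shared libraries, these calls are not set against those for 6 mg/kg against control. This step rests on few libraries: over probes it had 950 calls (6.73%), 559 higher (3.96%) and 391 lower (2.77%), but 11 in a fit on its 8 libraries alone, 302 without 3 mg/kg replicate 1 and 3105 without 3 mg/kg replicate 4, which also stands apart from its group. It had 408 without 3 mg/kg replicate 2, and 503, 609 and 601 without 6 mg/kg replicates 2, 3 and 4.

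Genes with a second tested probe allow a comparison within the assay. Of 361 risers with one, the second probe, the next by mean count, had the same sign in 330 (91.4%) and was itself called higher in 211 (58.4%), with a median of 1.003 against 1.06 for the main probe. Of 361 fallers with one, 283 had the same sign (78.4%) and 95 were called lower (26.3%), with a median of -0.38 against -0.74. Opposite calls were found for 4 risers and 3 fallers. Over all probes tested, 11.6% were called higher and 8.73% lower. The main probes entered by their call, while the second probes did not and have lower mean counts. Smaller medians and fewer calls for the second probe can arise from that choice alone. The probes of a gene share each liver and are not independent replicates. Falls on a single probe that its partner did not follow include Rps27l, at -2.85 with its other probe at 0.06, and Psenen, at -2.42 with its other probe at -0.46.

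**Figure D5:**
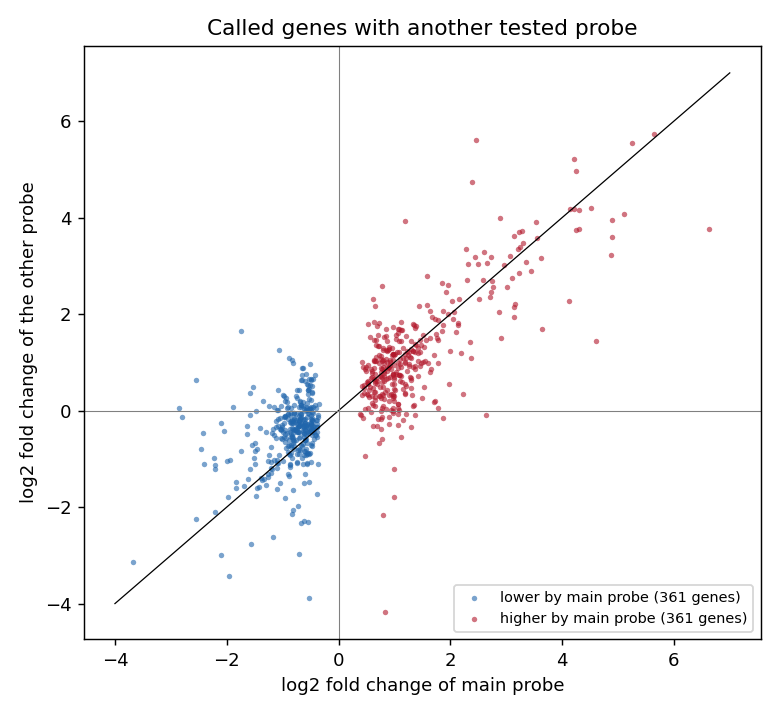
Log2 change of the main probe (horizontal axis) against that of the second probe of the same gene (vertical axis) for called genes with at least 2 tested probes, coloured by the call of the main probe, with a line where both are equal. The second probe has the same sign for 91.4% of risers and 78.4% of fallers, and its changes are smaller for the fallers. Main probes were selected by their call and second probes were not, which can by itself make the second smaller.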

How the data were processed

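The authors deposited raw counts per TempO-Seq probe, 1 column per mouse, with 30146 probes for 21450 gene symbols. The submitters' processing notes name Bowtie and the build GRCm38.p5, and its version and settings were not given in the sources used here. Probes were kept by filterByExpr in edgeR 4.0.16 (R 4.3.3), which left 14122 probes of 10101 genes with 99.8% of the counts. A robust quasi-likelihood model with TMM scaling took all 20 libraries, each group having its own mean. Benjamini-Hochberg adjustment ran over all tested probes, with 0.05 as the threshold. Each adjusted p is from this edgeR test; SD values are over animals and SE values belong to the fitted log2 changes. No library was dropped or imputed in it.

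A gene was read by whichever of its probes had the highest mean count. Named genes were sentinel genes, up to 3 members per list and direction by p, the 15 largest risers and fallers of at least 20 CPM without overlap, genes at 3 or fewer counts in every control (0 were found, so a limit of 10 was added after seeing the data) and the 20 most abundant control genes. Members of short counts and Hmgcs1 were named beyond that rule. Some genes that the rule names are left out here. The groups, lists and rule were chosen with earlier results of these data known. Coordinates are those of genes in the GENCODE M21 annotation of GRCm38, since probe positions were not used; promoters, 250 bases before the start, are from RefSeq (GRCm38.p6), and printed windows leave out bases inside an annotated gene.

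DESeq2 1.42.0, voom in limma 3.58.1, other scalings and filters, plate row as a covariate and left-out libraries were tried as alternatives. On simulated data for this comparison, over 13566 probes, edgeR recovered 6% of the 1.5-fold, 48% of the 2-fold, 96% of the 4-fold and 98% of the 8-fold changes, and 3 of its 127 calls were false. The simulation changed 50 probes at each fold, while 2867 probes were called in the data, so recovery there may differ. No 2 libraries of a group were copies (lowest chi-square over degrees of freedom 3.66).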

Additional observations from a re-analysis of the deposited data

Results flagged for a closer look

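In 23 of 280 groups of 4 libraries, 1 library lay far from the other 3 for a gene named above or for a library measure, where chance gives about 1 in 20. The library with the lowest correlation to its own group was 6 mg/kg replicate 4, at 0.940 against 0.966 to 0.970.

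For 10 genes the distant library was 6 mg/kg replicate 4. It lay above the other dosed livers for Cyp2b10 (3990.3 CPM against 1304 to 1661 CPM), Col1a1 (34.2 CPM against 4.32 to 7.80 CPM) and Alas2 (13.9 CPM against 8.28 to 8.89 CPM). It lay below them for Slco1b2 (234 CPM against 632 to 655 CPM), Apcs (137 CPM against 266 to 270.3 CPM), Fgb (1709.5 CPM against 2847 to 2992 CPM), Top2a (4.60 CPM against 13.6 to 15.3 CPM), Cyp2c29 (9958 CPM against 12848 to 13198 CPM), Cyp2c37 (5.70 CPM against 8.65 to 9.25 CPM) and Ifi27l2b (7.10 CPM against 15.96 to 16.6 CPM).

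For 8 genes it was 6 mg/kg replicate 1, always nearer to the controls than the other dosed livers were. It was lower for Ugdh (863 CPM against 1232 to 1284 CPM), Ehhadh (1066 CPM against 1499 to 1565 CPM), Tsku (55.4 CPM against 92.8 to 100.5 CPM) and Cdc20 (16.7 CPM against 31.1 to 33.6 CPM). It was higher for Ang (778 CPM against 396 to 454 CPM), Socs2 (10.6 CPM against 3.10 to 4.14 CPM), C1ra (2.64 CPM against 2.10 to 2.19 CPM) and Ugt2b38 (3.60 CPM against 0.700 to 1.10 CPM).

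In the controls, replicate 3 was high for Hsp90aa1 (120.1 CPM against 72.2 to 79.3 CPM) and Hmmr (1.08 CPM against 0.125 to 0.281 CPM), and replicate 1 was high for Psenen (45.3 CPM against 31.9 to 32.8 CPM) and S100a8 (3.12 CPM against 0.863 to 1.17 CPM). The causes were not tested.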

How the results depend on the processing

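For 6 mg/kg against control, the 2867 called probes became 1427 with probes of at least 20 CPM (826 higher, 601 lower), 767 with a minimum fold of 1.5 (551 higher, 216 lower) and 508 with plate row as a covariate (254 higher, 254 lower). The lower calls were 811 with total counts as the only scaling, which moved the median log2 change of all genes to 0.12, and 1958 without the 2 libraries that stand apart. Leaving out 1 library gave 2120 to 2998 probes (1235 to 1718 higher, 832 to 1280 lower). Other scalings, no filter, DESeq2 (3313), voom (2638), a fit on the 8 libraries compared and summed probes stayed within 1.5 times. The plate row term is estimated from the 0.3 mg/kg group alone, in which only replicate 4 lay in row B, so it is imprecise. With it, 311 of the 2072 called genes were also called and 2063 had the same sign. Of the 135 genes named, 61 lost their call. Their median absolute log2 change was 1.68 (1.79 without the covariate), with a median edgeR adjusted p of 0.127 (0.00085), and 25 had a change at least as large. Mitosis genes higher went from 43 to 14, DNA replication from 15 to 1, P450 enzymes from 14 to 7, NRF2 targets from 21 to 12, cholesterol synthesis from 19 to 8 and PPARalpha targets from 28 to 10. Growth hormone targets lower went from 10 to 2, complement and the interferon response from 12 to 4 each and pericentral genes from 11 to 4. The cause was not tested.

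For 6 against 3 mg/kg, the 950 probes became 1439 by DESeq2 (645 lower), 11 on the libraries compared (10 higher, 1 lower), 63 with a minimum fold (52 higher, 11 lower) and 2478 without the libraries that stand apart (1279 higher, 1199 lower). Lower calls were 199 with total counts and 243 with no filter. Leaving out 1 library gave 302 to 3105 (190 to 1662 higher, 112 to 1443 lower).

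No called gene named above changed direction under any alternative that gave it a value. No paired analysis was possible because the labels number no replicates. With 4 livers a group, most 1.5-fold changes were missed in the simulation. It held fewer changed probes than were called in the data, so its recovery may not carry over. Genes near 3 counts give imprecise folds.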
